A study of Mus musculus with 8 samples.

Results

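Bright array probes were compared in mouse pre-iPSCs between cells with a Nanog and a Sin3a transgene (Nanog+Sin3a) and cells with Sin3a alone (Sin3a). Each of these groups had 2 arrays. A probe counted as bright when its mean log2 intensity over all 8 arrays of the study was above 9, an intensity of 512, after values below 16 were raised to 16, a level called the floor here. This was so for 2670 of 45281 probes (5.90%). The bright probes covered 1883 genes, and 417 of them were not named because the array annotation gave no single symbol. Just inside the limit lay Lcmt1 (mean 9.0002) and Rap2c (9.0003), whose log2 differences were 0.13 and -0.43, and just outside it lay Cd2bp2 (8.9996) and Tmem41a (8.9995), at 0.05 and 0.37.

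Pre-iPSCs are cells that stopped partway through reprogramming. Those used here were female, of the 129/MF1 background, came from neural stem cells and held an Oct4-GFP-IRES-puro reporter, and all were cultured in serum with LIF on gelatin. The EV group received empty vectors, the Nanog group Nanog and an empty vector, the Sin3a group Sin3a and an empty vector, and the Nanog+Sin3a group both transgenes, each in 2 arrays taken at day 0 of reprogramming. Transgenes sat in PiggyBac vectors under the CAG promoter, were brought in together with the transposase, and were kept by selection with hygromycin, blasticidin or both, so that every group, EV included, carried vectors and had been through drug selection. A selected population with integrated transposons is a mixture of insertions, and the CAG promoter does not follow the regulation of the endogenous genes. The labels do not state that the 2 arrays of a group stem from separate cultures, and p-values therefore cover the spread between arrays, which may be technical.

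Nanog binds DNA through a homeodomain and belongs to the factors that hold cells in a pluripotent state, and raising its level helps stalled cells to complete reprogramming. Sin3a is a scaffold protein that brings histone deacetylases 1 and 2 to DNA-bound factors and is best known as a co-repressor. The title of the study names a cooperation of the Sin3a/HDAC complex with Nanog. The comparison described here asks which abundant transcripts differed between cells with both transgenes and cells with Sin3a alone.

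The transgenes were checked first. The brighter Nanog probe, itself too dim to be a member, read -7.30 and -12.2 on the Sin3a arrays and 290 and 285 on the Nanog+Sin3a arrays. It read -3.60 and -5.40 on the EV arrays and 365 and 486 on the Nanog arrays, so by this probe Nanog signal appeared only in the groups labelled with it. The dimmer Nanog probe did not show this, with 10.2 and -4.8 on the Sin3a arrays and 5.6 and 13.6 on the Nanog+Sin3a arrays. It was under the floor on every array except the first Nanog array, where it read 21. Why the probes differed was not tested. The Sin3a probe, which was bright, read 1182 and 1142 on the Sin3a arrays and 1485 and 1483 on the Nanog+Sin3a arrays, against 329 and 262 with empty vectors and 344 and 473 with Nanog. The 2 Nanog+Sin3a arrays were higher than both Sin3a arrays, a log2 difference of 0.35 ± 0.15 (standard error of the fit) that did not pass the test (adjusted p = 0.13).

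Each array held the same range of values, from the floor to 14965, and between 35.7% and 36.1% of its probes were above the floor. The second Sin3a array stood apart at dim probes. Between mean log2 values of 6 and 7 its median absolute difference from the first Sin3a array was 2.50, against 0.12, 0.20 and 0.18 between the 2 arrays of the EV, Nanog and Nanog+Sin3a groups. Above a mean of 9 the median over bright probes was 0.094 in the Sin3a group, the lowest of the 4 groups, whose others lay between 0.11 and 0.14. Even there, 33 bright probes differed by over 0.5 between the Sin3a arrays, and 29 of these were lower on the second one. Counts and calls are therefore also given without that array where it changed them by much.

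**Figure D1:**
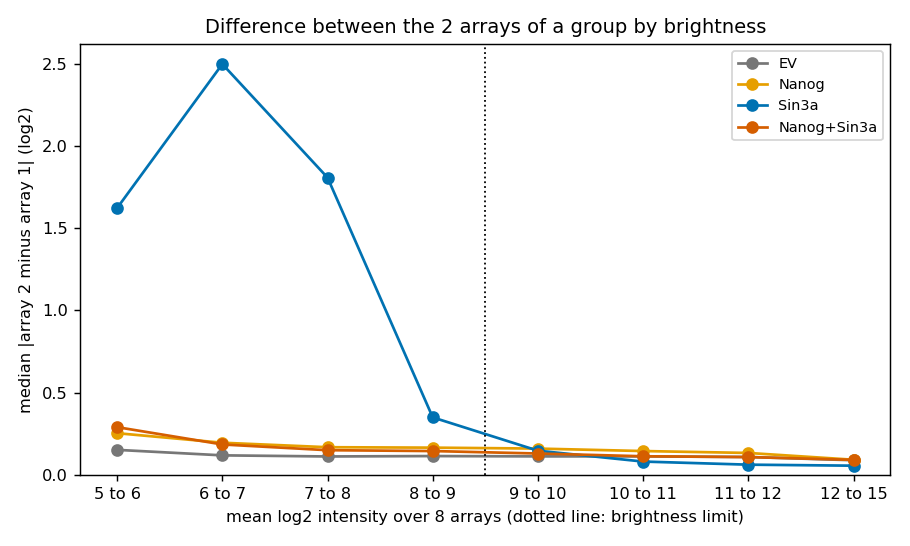
Median absolute log2 difference between the 2 arrays of each group (vertical axis) in bins of mean log2 intensity over the 8 arrays (horizontal axis). The Sin3a line stands at 1.62 to 2.50 in the bins from 5 to 8, and falls to 0.147 or less to the right of the dotted line, where the bright probes lie and the 4 groups are close together.

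The labelled cell type was compared with known markers. Of 7 neural stem cell markers, Pax6 and Fabp7 stayed under the floor on all 8 arrays, Olig2 was above it on 1 and Sox2 on 2. Nes was dim, at 57.7 to 106 on 7 arrays and 0.60 on the second Sin3a array, Egfr read 372 to 696, and Vim, a filament protein of many cell types, was bright at 2200 to 2973. Of 8 pluripotency markers, Pou5f1 was bright, at 867 to 1167, and Sall4 was dimmer, at 88.5 to 417. Dppa5a was above the floor on 7 arrays and Tdgf1 on 5, neither over 40, while Zfp42 was above it on 2 and Esrrb on 1.

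Between Sin3a and Nanog+Sin3a cells 309 of 2670 bright probes differed (11.6%). With both transgenes 156 were higher (5.84%) and 153 lower (5.73%), called rises and falls here. The test was limma's moderated fit over all 8 arrays with Benjamini-Hochberg adjustment at 0.05, and 763 probes had an unadjusted p below that value. Counted once per gene by its brightest probe, 203 of 1883 genes passed (10.8%), with 114 higher (6.05%) and 89 lower (4.73%). All 309 probes had Nanog+Sin3a arrays that did not overlap the Sin3a arrays. The shifts were small: 219 of the 309 were under 1.5-fold, 13 reached 2-fold (7 up, 6 down), and the median size among those called was 0.49 on the log2 scale. The median over all bright probes was 0.01, and the share called was between 10.4% and 12.7% in each of 4 brightness classes.

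That count depended on single arrays. Without the second Sin3a array 87 probes passed, 86 of them among the 309, and without the first Sin3a array 200 did. With 1 Nanog+Sin3a array left out, the count was 113 (the first) or 143 (the second). Leaving out the first or second Nanog array, which enter the comparison only through the shared estimate of spread, gave 483 and 488. All 309 probes kept their sign against either Sin3a array alone, which follows from the lack of overlap given above and adds no support. Of the 30 genes with the largest changes, which are named next, 26 passed without the second Sin3a array. The exceptions were Nomo1 (adjusted p = 0.061), Dpagt1 (0.083), Ier3 (0.36) and Atf4 (0.14). Without the first Nanog+Sin3a array Dpagt1, Ier3 and Atf4 lost their calls, and without the second Ier3 and Naa15 did.

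The largest rise was in Arhgdib. Its intensity was 441 and 454 on the Sin3a arrays and 1736 and 1320 on the Nanog+Sin3a arrays. The groups were far apart, a 3.38-fold rise (log2 1.76 ± 0.14, adjusted p = 5.56e-08). Without the Sin3a transgene the same gene read 478 and 470 in EV cells and 1165 and 1439 in Nanog cells. Levels were thus low in both groups without Nanog and high in both groups with it.

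Cbr3, an NADPH-dependent carbonyl reductase, came second. It read 429 and 468 with Sin3a and 1330 and 1457 with both transgenes, a 3.11-fold rise (log2 1.64 ± 0.14, adjusted p = 8.69e-08). In EV and Nanog cells it read 277 and 285, and 661 and 728. All 4 groups were separate, and the 2 Nanog+Sin3a arrays were above every other array. A second Cbr3 probe, dim and untested, read 141 and 28.7, and then 333 and 317. The stretch before its start is shown because this gene separated all 4 groups. It is from RefSeq (build GRCm38.p6), chr16:93682969-93683218 on the + strand, with matches to the GC box GGGCGG in capitals. Here 2 matches overlap and begin 101 and 97 bases before the start, and 32.7% of 32851 windows of this length held a match on either strand.
Cbr3: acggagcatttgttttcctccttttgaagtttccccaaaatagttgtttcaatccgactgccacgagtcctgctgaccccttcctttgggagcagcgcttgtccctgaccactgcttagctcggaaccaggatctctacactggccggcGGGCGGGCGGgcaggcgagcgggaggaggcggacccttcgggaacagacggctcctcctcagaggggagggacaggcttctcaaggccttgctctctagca

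Tuft1, which encodes the acidic protein tuftelin, read 487 on both Sin3a arrays and 1255 and 1133 with both transgenes (log2 1.29 ± 0.14, adjusted p = 4.65e-06). Krtdap, a secreted protein of differentiating keratinocytes, read 392 and 268, and then 868 and 735 (1.30 ± 0.17, adjusted p = 4.07e-05). Rab29, a small GTPase of Golgi and lysosomal traffic, read 454 and 377, and then 994 and 881 (1.18 ± 0.14, adjusted p = 2.42e-05). In all 3 genes the lower Nanog+Sin3a array was well above the higher Sin3a array.

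Gpc1, a heparan sulfate proteoglycan held at the surface by a lipid anchor, read 606 and 378 with Sin3a and 1026 and 1016 with both transgenes (log2 1.09 ± 0.16). The difference was 0.75 (adjusted p = 0.010) without the second Sin3a array, the lower of the 2. Prnp, the prion protein and likewise lipid-anchored, read 1314 and 1086, and then 2332 and 2486 (1.01 ± 0.12, adjusted p = 9.93e-06). Krt14, a keratin of basal epithelial cells, read 835 and 751, and then 1500 and 1650 (0.99 ± 0.13, adjusted p = 3.50e-05). The groups did not overlap in any of the 3.

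The remaining rises among the 15 largest were between 0.77 and 0.90. They were Bloc1s5 (0.90), a subunit of a complex that builds lysosome-related organelles; Nomo1 (0.82), an endoplasmic reticulum membrane protein; Spop (0.82), the substrate adaptor of a cullin 3 ubiquitin ligase; and Dpagt1 (0.81), the enzyme that starts the lipid-linked sugar chain for N-glycosylation. Irf1, a transcription factor of the interferon response, rose from 508 and 457 to 869 and 820 (0.81 ± 0.13). Ier3, an immediate early gene, had the widest spread of the 15, with 514 and 260 in Sin3a cells and 641 and 629 with both transgenes. Its log2 difference was 0.80 ± 0.21 (adjusted p = 0.017) and 0.30 without the second Sin3a array. Fkbp4, a co-chaperone of Hsp90, rose from 2454 and 2518 to 4050 and 4439 (0.77 ± 0.10).

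The largest fall was in Upp1, uridine phosphorylase, which splits uridine for salvage. It read 1164 and 1070 on the Sin3a arrays and 348 and 373 on the Nanog+Sin3a arrays, 3.10-fold lower (log2 -1.63 ± 0.13, adjusted p = 5.56e-08). EV cells read 1178 and 1049 and Nanog cells 552 and 514. The 2 groups without Nanog overlapped, both groups with it were below them, and the Nanog+Sin3a arrays were the lowest of the 8. The other 2 Upp1 probes, dim and untested, gave log2 differences of -1.53 and -1.75.

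Axl, a receptor tyrosine kinase for the ligand Gas6, read 1358 and 1344 with Sin3a and 610 and 606 with both transgenes, 2.22-fold lower (log2 -1.15 ± 0.13, adjusted p = 4.65e-06). It read 993 and 881 in EV cells and 665 and 563 in Nanog cells. The Sin3a arrays were the highest of the 8, and the 2 groups with Nanog overlapped. The promoter stretch is printed because the gene read overlapping levels in the groups with Nanog and separate levels in those without it. It covers chr7:25788734-25788983 on the - strand (RefSeq, GRCm38.p6), and its single GC box match, in capitals, begins 10 bases before the start.
Axl: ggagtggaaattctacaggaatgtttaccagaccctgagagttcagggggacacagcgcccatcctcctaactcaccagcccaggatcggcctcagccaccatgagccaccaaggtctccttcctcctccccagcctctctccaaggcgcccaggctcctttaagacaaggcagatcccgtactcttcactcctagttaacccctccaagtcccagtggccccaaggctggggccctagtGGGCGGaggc

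Aldh3a1, an aldehyde dehydrogenase, read 882 and 986 with Sin3a and 428 and 413 with both transgenes (log2 -1.15 ± 0.14, adjusted p = 2.42e-05). Slc11a1, a divalent metal transporter best known from macrophage phagosomes, read 1302 and 1481, and then 744 and 580 (-1.08 ± 0.15, adjusted p = 6.20e-05). Both had groups well apart, and both also fell in Nanog against EV cells (-0.95 and -0.93). The blood and macrophage markers Csf1r and Ptprc were under the floor on all 4 arrays of the comparison. Lyz2 was above it on the second Sin3a array (41.2). Hbb-bt read 15.4 and 46.7 on the Sin3a arrays and 16.8 and -1.30 on the Nanog+Sin3a arrays. The part of such cells in the Slc11a1 values was not tested. Sms-ps (-0.93 ± 0.14) is a processed copy of the spermine synthase gene Sms, and its probe may read both transcripts.

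Ubl3, a lipid-anchored ubiquitin-like protein, fell from 630 and 699 to 381 and 377 (log2 -0.81 ± 0.14), and Pdzrn3, a ubiquitin ligase with PDZ domains, from 776 and 860 to 507 and 419 (-0.83 ± 0.14). Naa15 and Naa25, the auxiliary subunits of the N-terminal acetyltransferases NatA and NatB, both fell by 0.69. Another bright Naa25 probe gave -0.29 and did not pass (adjusted p = 0.17). Tdrkh, a Tudor-domain protein of the piRNA pathway, fell from 795 on both Sin3a arrays to 440 and 501 (-0.76 ± 0.14).

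**Figure D2:**
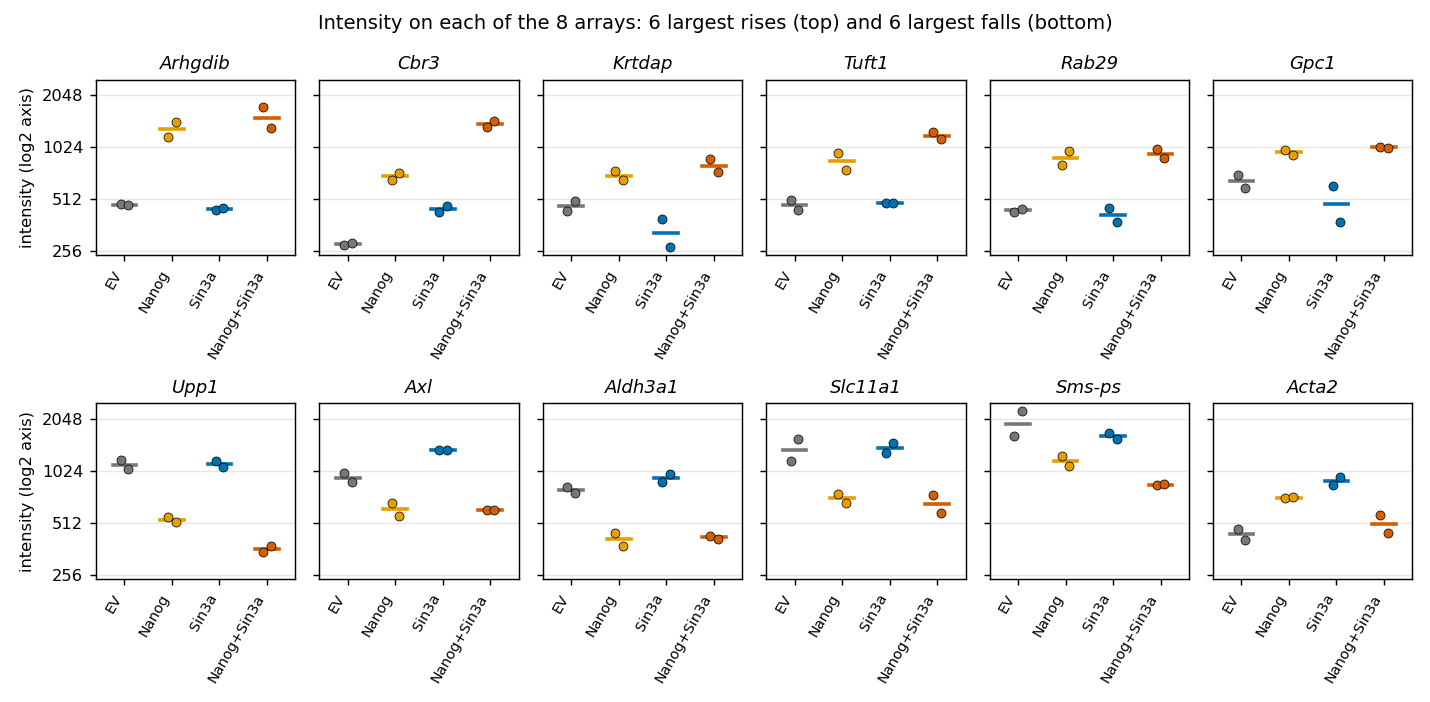
Intensity on each of the 8 arrays (points, log2 axis) with the geometric mean of each group (bars) for the 6 genes with the largest rise and the 6 with the largest fall between Sin3a and Nanog+Sin3a. Arhgdib is low in both groups without Nanog and high in both with it, Cbr3 is highest and Upp1 lowest with both transgenes, and Acta2 is higher with either transgene than with both, where it reads 566 and 443.

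The Nanog difference in cells without the Sin3a transgene was set beside these values, as Nanog against EV shares no array with Nanog+Sin3a against Sin3a. In that comparison 264 bright probes passed (9.89%), 130 higher and 134 lower. Both comparisons called 123 probes, 39.8% of the calls with Sin3a and 46.6% of those without it, and 122 of the 123 moved the same way. Of the 309 probes called with Sin3a, 298 (96.4%) had the same sign without it, against 72% of all bright probes. Across the 2670 bright probes the Pearson correlation of the 2 log2 differences was 0.695, and 0.693 without the second Sin3a array. These values describe probes, which are not independent replicates, and the 2 comparisons come from 1 fit and share each probe's estimate of spread.

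**Figure D3:**
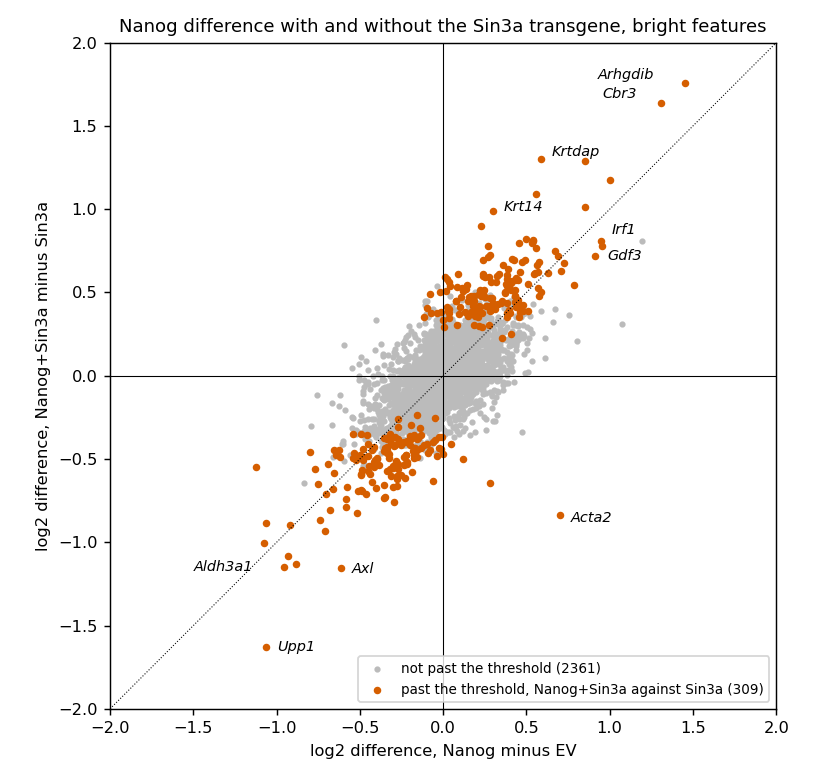
Each point is 1 of 2670 bright probes, with its log2 difference between Nanog and EV cells on the horizontal axis and between Nanog+Sin3a and Sin3a cells on the vertical axis; orange points passed the test in the latter and the dotted line marks equal differences. Of the orange points 298 lie in the lower left and upper right. The other 11 had opposite signs, among them Acta2, at 0.70 and -0.84, in the lower right.

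Whether the Nanog difference was altered by Sin3a was tested as the interaction, the difference with the Sin3a transgene minus the difference without it. It passed for 1 of 2670 probes (0.0375%), which was Acta2, and 170 probes had an unadjusted p below 0.05. The next smallest adjusted p was 0.055. The median 95% interval of an interaction reached 0.36 to either side on the log2 scale before any adjustment, and the adjusted test needs larger differences. Krt14 rose by 0.99 with Sin3a and gave 0.30 (adjusted p = 0.15) without it, and its interaction of 0.69 did not pass (adjusted p = 0.40). Likewise Slc2a1, the main basal glucose transporter, rose by 0.56 with Sin3a and gave 0.04 without it, with an interaction of 0.53 (adjusted p = 0.43). The interactions of Axl and Upp1 were -0.54 and -0.57 and did not pass (adjusted p = 0.66 in both).

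Acta2 encodes smooth muscle actin, a contractile actin that is also made by activated fibroblasts. It read 474 and 408 in EV cells, 711 and 718 in Nanog cells, 851 and 940 in Sin3a cells, and 566 and 443 in Nanog+Sin3a cells. Each transgene alone was accompanied by a higher level than empty vectors, and the Nanog+Sin3a arrays were below all arrays of either single transgene, 1 of them within the range of the EV arrays. With Nanog the level was higher by 0.70 ± 0.15 without Sin3a (adjusted p = 0.0052 in limma) and lower by 0.84 ± 0.15 with it (adjusted p = 0.00078 in limma). The interaction was -1.54, with a 95% interval from -1.97 to -1.11 (adjusted p = 0.00081). It was between -1.71 and -1.36 when single arrays were left out, and without the second EV array its adjusted p was 0.050 and no probe passed. None of the other 5 Acta2 probes was bright, and 2 stayed under the floor on all 8 arrays. The least dim read 76.2 and 71.0 in EV cells, 130 and 143 in Nanog cells, 78.4 and 93.0 in Nanog+Sin3a cells, and 148 on the first Sin3a array but 21.3 on the second. Another read 34.6 and 39.0 in EV cells, 50.6 and 52.9 in Nanog cells, 43.6 and 8.90 in Sin3a cells and 23.3 and 37.4 in Nanog+Sin3a cells, and the last 41.6 and 31.3, 55.6 and 64.4, 64.9 and -7.00, and 41.1 and 62.5 in the same order of groups. In all 3 the Nanog arrays were above the EV arrays, and the second Sin3a array was the lowest of the 8.

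Smooth muscle actin transcription is known to depend on CArG boxes, sites bound by serum response factor, and the stretch before its start is shown for that reason (RefSeq, GRCm38.p6, chr19:34255374-34255623, - strand). A match was taken as CC, then 6 bases of which at most 1 was not A or T, then GG, on either strand. Here 2 matches, in capitals, begin 84 and 34 bases before the start, and 8.60% of the 32851 windows held at least 1. A match is a description of the sequence and was not tied to binding by these data.
Acta2: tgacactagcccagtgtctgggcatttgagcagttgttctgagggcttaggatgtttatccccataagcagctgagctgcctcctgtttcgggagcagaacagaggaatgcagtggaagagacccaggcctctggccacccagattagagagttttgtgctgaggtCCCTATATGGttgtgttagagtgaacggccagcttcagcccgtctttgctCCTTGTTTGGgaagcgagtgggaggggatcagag

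The actin and contractile genes did not move as a group with Acta2. Of 24 bright members 2 rose and 3 fell (20.8%, against 10.8% of all bright genes). Their median was -0.03, against 0.01 for all bright genes. The rises were Arhgdib and Tagln2, an actin-bundling transgelin (0.45 ± 0.12). The falls besides Acta2 were Arpc1b (-0.46 ± 0.15), a subunit of the Arp2/3 complex that branches actin filaments, and Actb (-0.39 ± 0.11). The Actb probes disagreed: another bright one gave -0.47 (adjusted p = 0.035) and the last 0.81 (adjusted p = 0.080), so no direction is given for the gene. Without the second Sin3a array Arhgdib, Acta2 and Arpc1b passed. Of 7 mesenchymal markers, Col1a2 and Col3a1 were under the floor on all 8 arrays, and Col1a1, Postn and Pdgfrb on all but 1. Twist1 read 181 to 372 over the 8 arrays, with 270 and 372 on the Sin3a arrays and 211 and 206 on the Nanog+Sin3a arrays. Thy1 went the other way, with 230 and 11.7 on the Sin3a arrays and 342 and 392 on the Nanog+Sin3a arrays. The part of such cells in the Acta2 values was not tested.

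The genes were then grouped into 40 lists by function, which held 583 bright genes, and 67 of these passed (11.5%, against 10.8% of all bright genes), 35 higher and 32 lower. In bulk RNA a change in the number of cells that make a transcript and a change in its level per cell cannot be told apart. Without the second Sin3a array 23 of the 67 passed, and of the 29 lists with a call 12 had none left. Of the lists, 11 had no member that passed. Among the 34 with at least 4 bright members, 24 had a median within 0.1 of 0.

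**Figure D4:**
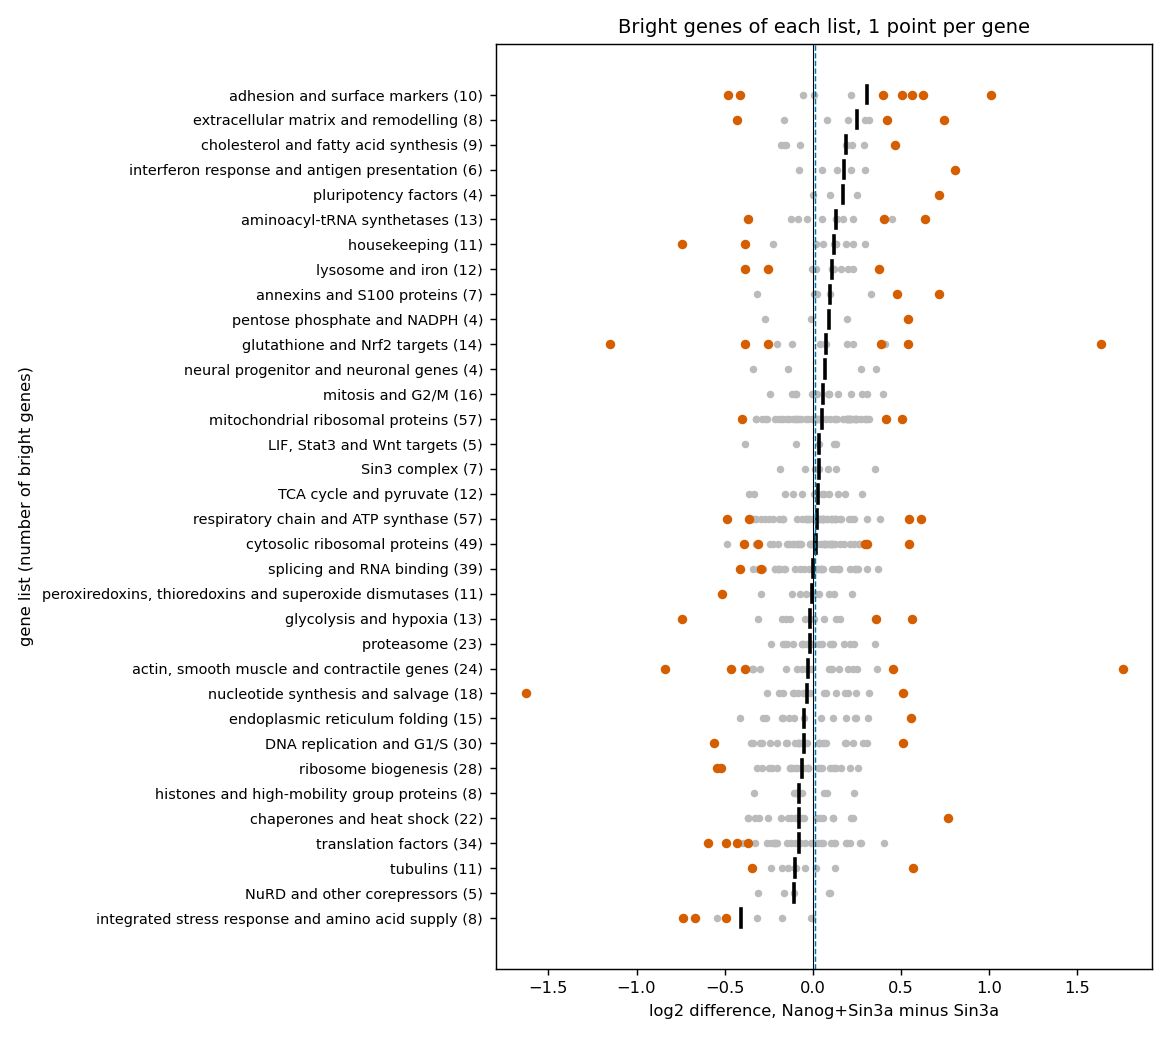
Log2 difference between Nanog+Sin3a and Sin3a cells for each bright gene (points) of the 34 lists with at least 4 bright members, in order of their medians (black bars); orange points passed the test and the dashed line is the median of all bright genes, 0.01. The adhesion and surface list has the highest median, 0.31, and the integrated stress response list the lowest, -0.41.

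Adhesion and surface genes had the largest share of calls, 70.0% against 10.8% of all bright genes. The lists were chosen with earlier results of these data known, so this rank is a description and was not tested. Of 35 members on the array 10 were bright, of which 5 rose and 2 fell, and the median was 0.31. Beside Prnp, the rises included the tetraspanins Cd9 (0.63 ± 0.13), Cd151 (0.56 ± 0.11) and Cd81 (0.51 ± 0.12), which organise integrins and other receptors in the membrane. Cd9 read 1324 and 1362 with Sin3a and 2042 and 2106 with both transgenes. Emp1, an epithelial membrane protein, rose by 0.40. The falls were Itga3, a laminin-binding integrin subunit (-0.48), and Cd63, a tetraspanin of late endosomes (-0.41). Cd44, the hyaluronan receptor, read 0.01, and without the second Sin3a array Prnp, Cd9, Cd151 and Cd81 passed. The other 2 bright probes of Cd151 were positive but did not pass, at 0.24 and 0.25.

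Genes of the extracellular matrix gave 2 rises and 1 fall among 8 (median 0.25), a share of 37.5% against 10.8% of all bright genes. Timp2, an inhibitor of matrix metalloproteinases, rose from 530 and 431 to 799 and 805 (0.75 ± 0.14), while its relative Timp1 fell from 2514 and 2552 to 1992 and 1775 (-0.43 ± 0.10, and -0.37 by a second bright probe, which also passed). Serpinh1, the collagen chaperone of the endoplasmic reticulum, rose by 0.42. The 2 inhibitors thus moved in opposite directions, as they did in Nanog against EV cells, where they changed by 0.67 and -0.41. Of the 3 calls, that of Timp2 held without the second Sin3a array.

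Among 7 annexin and S100 genes 2 rose (28.6%, against 10.8% of all bright genes). Anxa3, a calcium-dependent phospholipid-binding protein, went from 3364 and 3410 to 6097 and 5090 (0.72 ± 0.10, and 0.68 by its second bright probe), and Anxa5 rose by 0.48. Anxa2 read 0.01 and S100a10, its partner, -0.32 (adjusted p = 0.068). The tubulin list of 11 bright genes also held Dynll1, Dynlrb1, Stmn2 and Mapre1, which are not tubulins. In it Tubb2b rose (0.57 ± 0.11, with 0.78 by another bright probe) and Tubb6 fell (-0.35 ± 0.11), a share of 18.2% against 10.8% of all bright genes. Without the second Sin3a array Anxa3 passed, and Anxa5 and the brightest Tubb2b and Tubb6 probes did not.

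Of 3 bright keratin and epithelial genes, Krt14 was the 1 that passed, and Krt8 read -0.04. The other 5 epithelial markers, with negative values set to 0, summed to 1042 and 1189 on the Sin3a arrays and to 944 and 1222 on the Nanog+Sin3a arrays, which overlap. Krt18 was under the floor on all 8 arrays, Epcam was under it on all but the second Sin3a array, and Cdh1 reached at most 26.4. Of 3 primitive endoderm and trophectoderm genes, Dab2, an endocytic adaptor, fell from 1192 and 1186 to 754 and 723 (-0.69 ± 0.12, and -0.71 by its second bright probe). The other 4 primitive endoderm markers summed to 17.5 and 96.7 on the Sin3a arrays and to 22.8 and 1.10 on the Nanog+Sin3a arrays. Gata4 was under the floor on all 8 arrays, and Gata6 and Sox17 were under it on all but the second Sin3a array.

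Pluripotency genes were mostly too dim to be members, with 4 of 31 bright. Of these Gdf3, a TGF-beta family ligand expressed in pluripotent cells, rose from 894 and 757 to 1467 and 1250 (0.72 ± 0.13, adjusted p = 0.00078). In Nanog against EV cells it rose by 0.91, from 948 and 911 to 1613 and 1894. Pou5f1, which encodes Oct4, read 1107 and 867 with Sin3a and 904 and 1066 with both transgenes, groups that overlapped. Its second bright probe gave 0.48 (adjusted p = 0.081). Fbxo15 read 0.25 (adjusted p = 0.18). Leaving out Nanog itself, which is a transgene here, the other 7 pluripotency markers summed to 1513 and 1369 on the Sin3a arrays and to 1055 and 1232 on the Nanog+Sin3a arrays, which were lower than both. Sall4, too dim to be tested, read 293 and 417, and then 88.5 and 98.5.

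No member of the Sin3 complex passed. Of its 7 bright genes, Sin3a itself had the highest value, and Hdac2, the deacetylase subunit, the lowest, with 1926 and 2042 on the Sin3a arrays and 1748 and 1737 on the others (-0.19 ± 0.12, adjusted p = 0.31). Other co-repressor genes (5, with Kdm1a at -0.31 and Rcor1 at -0.17) and the DNA methyltransferase Dnmt1 (-0.22) with its partner Uhrf1 (-0.10) did not pass either. The same was so of 8 histone and high-mobility group genes, among them H3f3a (-0.34) and Hmgn3 (0.23).

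The list with the lowest median was that of the integrated stress response and amino acid supply, at -0.41. This pathway links amino acid shortage and other stresses to the transcription factor Atf4, which switches on amino acid synthesis and transport. Of 32 members on the array 8 were bright. By their brightest probes all 8 were below 0, though Mthfd2 (-0.01) and Asns (-0.002) were close to it, and 3 passed (37.5%, against 10.8% of all bright genes). Psat1, an enzyme of serine synthesis, fell from 3216 and 3443 to 1903 and 2099 (-0.74 ± 0.10, adjusted p = 6.92e-05). Atf4 fell from 1372 and 1503 to 825 and 990 (-0.67 ± 0.16, adjusted p = 0.011). Eif4ebp1, an inhibitor of cap-dependent translation and an Atf4 target, fell from 1748 and 2111 to 1199 and 1554 (-0.49 ± 0.14, adjusted p = 0.025).

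The groups were apart in each of these genes, and Psat1 passed without the second Sin3a array while Atf4 and Eif4ebp1 did not (adjusted p = 0.14 and 0.34). Asparagine synthetase, Asns, another Atf4 target, did not share in it: it read 1263 and 1506 with Sin3a and 1388 and 1365 with both transgenes (-0.002). The amino acid transporter Slc38a2 had 2 bright probes of opposite sign, -0.55 and 0.26, neither of which passed. In Nanog against EV cells the median of the list was -0.42, with 7 of 8 members below 0, and there Asns read -0.50.

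Of 34 translation factors 4 fell and none rose (11.8%, median -0.08), a share close to the 10.8% of all bright genes: Pa2g4, a growth-regulated RNA-binding protein (-0.59 ± 0.11), Eif4ebp1, Eef1e1, a scaffold of the tRNA synthetase complex (-0.43 ± 0.12), and Eif3f, an initiation factor subunit (-0.37 ± 0.09). A second bright Eif3f probe read -0.06. Of 28 ribosome biogenesis genes, Bop1 (-0.54 ± 0.15) and Rrp12 (-0.52 ± 0.13) fell and none rose (7.14%). The aminoacyl-tRNA synthetases differed, with Vars (0.64 ± 0.13) and Gars (0.40 ± 0.09) higher and Iars (-0.37 ± 0.12) lower among 13 (23.1%). A second Vars probe read 0.24 and did not pass. Of all these calls, that of Pa2g4 alone held without the second Sin3a array.

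The most abundant machinery shifted little. The shares called were 10.2% for cytosolic ribosomal proteins, 5.26% for mitochondrial ones and 7.02% for the respiratory chain and ATP synthase. None was above the 10.8% of all bright genes. Of 49 cytosolic ribosomal proteins 3 rose, among them Rps25 (0.55) and Rps14 (0.31), and 2 fell, Rpl39 (-0.39) and Rps16 (-0.31), with a median of 0.02. Of 57 mitochondrial ribosomal proteins, Mrps34 (0.51) and Mrps11 (0.42) rose and Mrpl43 (-0.40) fell. Of 57 respiratory chain and ATP synthase genes, the complex I subunits Ndufa9 (0.61 ± 0.10) and Ndufa8 (0.55 ± 0.12) rose, and Atp5a1 (-0.49 ± 0.14) and the complex I subunit Ndufv1 (-0.36 ± 0.11) fell. Without the second Sin3a array no call of the 2 ribosomal lists held, and Ndufa9 alone passed in the respiratory list. No member of the proteasome (23) or of the TCA cycle and pyruvate list (12) passed. In the former Psmb10 read 0.35 by its brightest probe and 0.69 by another that passed, and Psma5 read -0.24; in the latter Pdhb and Fh1 read -0.36 and -0.33.

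Glycolysis genes split. Pgk1, phosphoglycerate kinase, fell from 3081 and 3104 to 1930 and 1769 (-0.74 ± 0.10, adjusted p = 6.20e-05), with the groups far apart. Slc2a1 rose from 1429 and 1398 to 1985 and 2200, and Tpi1, the isomerase of the same pathway, rose by 0.36 with a second bright probe at 0.09. Pgk1 and Slc2a1 passed without the second Sin3a array. The other 10 of 13 bright members, Gapdh, Ldha and Pkm included, did not pass. The share called was thus 23.1%, against 10.8% of all bright genes. Of 18 nucleotide synthesis and salvage genes, Upp1 fell and Tk1, thymidine kinase, rose (0.52 ± 0.12), a share of 11.1%.

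Genes of glutathione and the Nrf2 response, a defence against oxidants and electrophiles, moved both ways, with 3 rises and 3 falls among 14. The share called was 42.9%, against 10.8% of all bright genes. Cbr3, Tkt of the pentose phosphate pathway (0.54 ± 0.12) and Gpx4, which reduces lipid peroxides (0.39 ± 0.10), rose. Aldh3a1 and the ferritin chains Ftl1 (-0.38 ± 0.09) and Fth1 (-0.25 ± 0.08) fell. Gclm, the regulatory subunit of the enzyme that limits glutathione synthesis, read 0.07. A second Gpx4 probe read -0.11 and a second Fth1 probe -0.03. Of the 6 calls, those of Cbr3 and Aldh3a1 held without the second Sin3a array. Among 11 peroxiredoxin, thioredoxin and superoxide dismutase genes with metallothioneins, Mt1 fell from 8194 and 8283 to 5124 and 6474 (-0.52 ± 0.09). That list had 9.09% called.

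Tkt was the 1 gene of 4 to pass in the pentose phosphate list as well. Of 12 lysosome and iron genes Psap, the saposin precursor, rose (0.38 ± 0.12) beside the falls of the ferritins, and of 9 cholesterol and fatty acid synthesis genes Fdps, a farnesyl diphosphate synthase, rose (0.47 ± 0.11). Of 22 chaperones Fkbp4 rose and 21 did not pass. The abundant chaperone Hspa8 gave 0.04 and -0.03 by its 2 brightest probes, but -0.87 (adjusted p = 0.0014) by another that passed. Of 15 endoplasmic reticulum folding genes Selenos rose (0.56 ± 0.15). Of the calls in these lists, that of Fkbp4 alone held without the second Sin3a array.

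Cell cycle genes showed little. Of 30 genes of DNA replication and G1/S, Tk1 rose and Rpa3, a subunit of the single-strand binding protein RPA, fell (-0.56 ± 0.11). This was 6.67%, against 10.8% of all bright genes. None of 16 mitotic genes passed, with Ncapd2 at 0.40 (adjusted p = 0.060) and Kif2c at 0.31. Nor did any of the 3 bright genes in the list made for CDK inhibitors and p53 targets, where Cdkn2a read -0.27. That list also held Dda1 (0.25), which is neither a CDK inhibitor nor an established p53 target. Of 39 splicing and RNA-binding genes Prpf19 (-0.41 ± 0.11) and Hnrnpm (-0.30 ± 0.10) fell (5.13%). Of the 3 bright probes of Prpf19, 2 passed and the other read -0.03, and both other Hnrnpm probes were within 0.05 of 0. None of the calls of these cell cycle and splicing genes held without the second Sin3a array.

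Signalling lists held few bright genes. Of 3 ERK feedback and immediate early genes Ier3 rose and Klf6, a zinc finger factor, fell (-0.49 ± 0.15), and neither passed without the second Sin3a array. Among 5 LIF, Stat3 and Wnt targets none passed, and Pim3 read -0.39 and Socs2 0.13. Of 6 interferon and antigen presentation genes Irf1 was the 1 that passed, while B2m read 0.30 (adjusted p = 0.074) and Ifitm3 -0.08. No member passed among 4 neural genes, with Dpysl2 at 0.36 and the creatine kinase Ckb at -0.34, or among 3 imprinted and growth factor genes, with Phlda2 at 0.33 and Impact at 0.31. Ckb read 0.47 (adjusted p = 0.018) in Nanog against EV cells, and its interaction of -0.81 did not pass (adjusted p = 0.091).

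Of 11 genes often used as references, Pgk1 and the brightest Actb probe were among the calls (18.2%, against 10.8% of all bright genes). Gapdh (0.13), Hprt (0.13) and Ppia (0.19) did not pass. Across the whole set, 318 genes had more than 1 bright probe and 65 of them had at least 1 call. In 50 of the 65 all probes had the same sign, and in 13 all of them passed. Disagreement between probes of a gene was also seen for Mrpl43 (-0.40 and -0.05) and Arpc1b (-0.46 by 2 probes and 0.18 by another). The source of these differences was not tested.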

How the data were processed

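RNeasy-purified total RNA had been amplified to biotin-labelled cRNA (Ambion MessageAmp), per the labels' protocols. For each probe the authors deposited an intensity made with GenomeStudio, per the submitters' processing notes, which give no version or settings. Between 47.3% and 47.7% of values on an array were below 0 and the highest was 14965, so they are linear and background-subtracted, and quantile normalisation again changed no count of calls. These intensities were not rescaled, and log2 was taken after those under 16 had been set to 16.

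By the platform annotation, 34885 probes had a single symbol, 18 had more and 10378 lacked one, and a gene was represented by its brightest probe. Samples were grouped by their labels. The 2670 bright probes were fitted in R 4.3.3 with limma 3.58.1 (lmFit and eBayes with an intensity trend, 1 coefficient per group, 4 residual degrees of freedom and a prior of 16.6), two-sided, with Benjamini-Hochberg adjustment at 0.05 over all 2670. An error after a log2 difference is the fit's standard error, with n = 2 arrays in each group. Being arrays, they are limited in precision by their number. The procedure was tested on simulated data.

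The named genes are Nanog, Sin3a, up to 15 rises and 15 falls of largest size with groups that do not overlap, up to 10 interactions, and in each of 40 lists up to 4 members that passed, or up to 2 as values where none did. The Hspa8, Asns, Slc38a2, Itga3 and Emp1 values and others outside this rule were chosen after their values were seen. Members and lists were chosen with earlier results of these data known. Alternatives changed the floor, the brightness limit, the normalisation, the probes per gene, the arrays fitted, the variance model, array weights and a replicate block, and left out each array in turn. Same-numbered arrays of 2 groups deviated together with correlations from -0.19 to 0.06, none above 0.1, so the numbers were not taken as pairs.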

Additional observations from a re-analysis of the deposited data

Results flagged for a closer look

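The Nanog difference for Acta2 was of opposite sign with and without the Sin3a transgene, and the test of that difference passed (interaction -1.54 on the log2 scale, adjusted p = 0.00081 by limma over 2670 bright probes). Intensities were 474 and 408 in EV cells, 711 and 718 in Nanog cells, 851 and 940 in Sin3a cells, and 566 and 443 in Nanog+Sin3a cells. It was the single interaction that passed of 2670, and without the second EV array its adjusted p was 0.050.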

How the results depend on the processing

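In the comparison of Nanog+Sin3a with Sin3a, 151 probes passed at a limit above 10. With no brightness limit 19673 probes were tested, and 14 bright probes passed. At that setting calls were counted among the bright probes only, in every comparison, and dimmer probes that passed were not counted. The unadjusted counts given below cover all probes tested. Leaving out single arrays gave 87 to 488. In Nanog against EV, 127 passed above 8, 120 above 10, 0 with no limit (1337 at an unadjusted p under 0.05 in limma) and 114 with only the 2 groups fitted. The range without single arrays was 34 (without the second EV array) to 552 (without the first Nanog array). For the interaction the counts were 2 above 8, 0 above 10 and 0 with no limit (99 and 494 at an unadjusted p under 0.05 in limma), 4 with array weights, and 0 to 21 without single arrays, where 0 was without the second EV array (108 unadjusted in limma) and 21 without the first Nanog array. No cause of these changes was tested, but the limits also change how many probes are tested, and Acta2, with a mean log2 intensity of 9.26, is not among those above 10.

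The other settings kept each count within 1.5 times its main value. For Nanog+Sin3a against Sin3a these were 309 at a floor of 32, 315 with 50 added, 268 above 8, 309 after quantile normalisation again and after centring, 266 with 1 probe per symbol, 459 with only the 2 groups, 284 without a trend and 445 with array weights. With the replicate block 270 passed, 269 of them among the 309, and 201 did in Nanog against EV. Socs2 (0.13 in the full fit, -0.019 to 0.28 without single arrays) and Rcor1 (-0.17, and -0.37 to 0.043) changed sign without the first Nanog+Sin3a array among the 101 named genes, and neither passed in any case. Of the 79 named genes that passed, 37 did so when the second Sin3a array was left out, 50 when the first was, and 44 or 54 when a Nanog+Sin3a array was dropped (the first or the second). At dim probes the second Sin3a array sets the limit, so genes under the brightness limit were not analysed here.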

Other observations

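Other groups were noticed only after their values were seen, so they are given as values with no test of the group. For scale, 10.8% of all bright genes passed. Of 5 bright transcripts of the mitochondrial genome, COX2 (-0.59), ATP6 (-0.50) and ND1 (-0.36) fell between Sin3a and Nanog+Sin3a cells, and CYTB (-0.17) and ND4 (0.03) did not pass. ATP6, a subunit of ATP synthase, read 1943 and 2061 on the Sin3a arrays and 1483 and 1354 on the Nanog+Sin3a arrays. It read 2089 and 2364 in EV cells and 1508 and 1579 in Nanog cells, so both groups with Nanog were below both groups without it. COX2, a subunit of cytochrome c oxidase, read 1570 and 1740, and then 1086 and 1115. Without the second Sin3a array none of these calls held (adjusted p = 0.11 to 0.29 in limma). The nuclear respiratory chain genes had a median of 0.03.

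Bzw1 and Bzw2, which encode a pair of related regulators of translation initiation, both fell (-0.38 and -0.37, adjusted p = 0.041 and 0.025), and neither call held without the second Sin3a array (0.35 and 0.33). Of 3 bright genes of N-terminal acetyltransferases, the catalytic subunit Naa20 of NatB stayed at -0.01 (adjusted p = 0.99) beside the falls of the auxiliary subunits Naa15 and Naa25. Of 6 bright tetraspanins 4 rose, Tspan3 (0.42) being the one outside the lists, Tspan31 read 0.36 and did not pass, and Cd63 fell.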
